A study of Mus musculus with 4 samples.

Results

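The 39 interferon-stimulated genes described here were taken as a named list, with no threshold on a measured value but with earlier results of these data known, out of 21889 mouse genes whose open chromatin was counted. The measurements were single-cell ATAC-seq fragments, which mark chromatin that a transposase can enter, so the values below are accessibility and not expression. T cells were sorted 4 weeks after transplantation from AKP colorectal tumors and from the adjacent tumor-free cecum of the tumor-bearing mice, and their nuclei were profiled with a 10x multiome assay that reads RNA and ATAC together. AKP tumors grow from mouse organoids of 1 line, with engineered alleles that include loss of Apc and Trp53, injected into the wall of the cecum, so the cecum cells also came from tumor-bearing animals and no untransplanted mice are compared here. There was 1 ATAC library per tissue, with 66466111 fragments and 7155 labelled cells in cecum and 96747563 fragments and 8466 labelled cells in tumor. The cells carried 17 cell type labels given by the authors from the RNA of the same nuclei, and the 13 labels with at least 100 cells in both libraries are compared here.

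With 1 library per tissue no test was possible, and tissue and library cannot be told apart. How many animals were pooled into a library was not given in the sources used here. The libraries shared 84 cell barcodes by sequence. Summed over the windows of 6 T cell marker genes, fragments per 1000000 and per kb ranged from 3.53 to 5.68 across the labels in cecum and from 3.53 to 5.41 in tumor, against 0.20 to 0.31 for 6 B cell genes, 0.23 to 0.50 for 6 myeloid genes and 0.26 to 0.60 for 10 epithelial genes over both libraries. Ms4a1, Adgre1, Lyz2, Krt8, Krt20 and Cdx2 each reached 0 in some label. Other labels and genes of these lists were higher: Cd79b reached 1.89 and Cdh1 1.81 in tumor, and Spi1 1.52 and Cdx2 1.06 in cecum. The T cell genes Cd2 and Cd5 fell to 0.844 in tumor and 0.585 in cecum, so single genes overlap between the lists. The B cell gene Cd79a did not follow its list, with 5.59 to 6.82 across the labels in cecum and 5.84 to 7.82 in tumor, as high as the T cell genes, and the myeloid gene Cd14 had 1.0 to 1.88 and 1.09 to 1.63. Their part in the results was not tested.

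Interferons are cytokines that infected, stressed or stimulated cells release. Type I and type II interferons bind different receptors and act through Janus kinases, which phosphorylate STAT proteins. A complex that holds STAT2 and IRF9 binds the interferon-stimulated response element (ISRE), STAT dimers bind the gamma-activated site (GAS), and the genes they induce block viral replication, sense foreign nucleic acids and reinforce the response. T cells respond to interferon as they are primed and can carry an interferon signature in the gut and in tumors.

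Promoter sequences are shown first because the ISRE is what the family is known to share, and the list was not chosen for it. The RefSeq promoter table of GRCm38.p6, which covers 250 bases before to 50 bases after each start, held 36 promoters of 29 of the 39 genes. The ISRE letters GAAANNGAAA, searched on both strands, were in the promoters of 14 of these 29 genes (48.3%), against 1079 of all 27025 genes in the table (3.99%). The GAS letters TTCNNNGAA were in 6 of the 29 (20.7%) against 2582 of 27025 (9.55%). Eif2ak2 and Bst2 held both, and in Bst2 the 2 motifs overlapped. The other ISRE-bearing genes were Ifit1, Ifit3, Ifit3b, Oas3, Ifih1, Stat2, Isg15, Gbp2, Gbp3, Slfn5, Rsad2 and Trim30a, and the other GAS-bearing genes were Ifit2, Irf1, Isg20 and Ifi35. A match describes letters in this window and is not evidence of a bound site.

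The following stretches of 60 bases, read 5′ to 3′ on the strand of the gene, show ISRE letters in capitals for members whose accessibility is described below, where TTTCNNTTTC is the same motif on the opposite strand and capitals that run on mark overlapping matches.
Ifit1: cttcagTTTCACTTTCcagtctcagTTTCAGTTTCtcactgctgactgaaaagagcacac
Ifit3: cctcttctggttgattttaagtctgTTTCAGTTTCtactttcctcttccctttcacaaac
Ifit3b: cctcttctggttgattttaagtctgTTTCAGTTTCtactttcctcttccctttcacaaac
Oas3: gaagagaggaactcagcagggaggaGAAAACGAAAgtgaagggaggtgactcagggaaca
Isg15: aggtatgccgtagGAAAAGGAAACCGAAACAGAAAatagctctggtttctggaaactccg
Gbp2: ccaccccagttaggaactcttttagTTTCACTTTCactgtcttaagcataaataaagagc
Slfn5: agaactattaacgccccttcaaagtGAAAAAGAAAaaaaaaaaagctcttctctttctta
Bst2: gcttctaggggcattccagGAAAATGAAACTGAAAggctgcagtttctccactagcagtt

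In Ifit1 (chr19:34640779-34640838, plus strand) the shown match nearer the start began 85 bases before it. The pieces of Ifit3 (chr19:34583382-34583441) and Ifit3b (chr19:34607778-34607837), both on the plus strand, were identical over all 60 bases. These 2 genes are near-identical copies, so reads may be split or lost between them and their separate values are uncertain. The Oas3 piece (chr5:120777700-120777759, minus strand) and the Gbp2 piece (chr3:142620579-142620638, plus strand) held 1 match each. Isg15 (chr4:156200850-156200909, minus strand) held 3 overlapping matches, and Bst2 (chr8:71537562-71537621, minus strand) held 2. The Slfn5 match (chr11:82951922-82951981, plus strand) lay 155 bases before its start. No ISRE letters were found in the promoter windows of Slfn1, Oasl1, Oasl2, Irf7 or Ifit2.

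Accessibility differed widely between the members. For each gene, fragments with an end in the gene span or the 5 kb on either side were counted once and scaled per 1000000 fragments of the same cells (FPM), and levels are compared between genes only per kb of window. Windows ran from 11.4 kb (Isg15) to 104 kb (Rtp4). Fragments gather in few 500-bp tiles, so a level per kb also falls as the window lengthens. Its order is not that of the most accessible tiles. In cecum the top tile of Ifih1 had 17.6 FPM and that of Ifit1 11.6, though Ifih1 was lower per kb. Among the transcription factors that carry the response, Irf1 had 6.14 FPM per kb in cecum and 5.57 in tumor, Irf7 had 5.11 and 4.84, Irf9 had 3.38 and 3.32, and Stat2 had 2 and 1.78. Irf7 amplifies type I interferon production, and Irf9 and Stat2 encode parts of the complex that binds the ISRE.

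Isg15, a ubiquitin-like protein attached to other proteins, had the highest level of the family, with 8.68 FPM per kb in cecum and 7.9 in tumor. Its window also holds Agrn and Perm1, only 15.5% of its cecum fragments lay within 1 kb of its own gene ends, and its most accessible 500-bp tile lay in the Agrn span, so this level is not that of Isg15 alone. Usp18, the protease that removes ISG15 and dampens the interferon receptor, had 1.89 and 1.86, and Herc6, the ligase that attaches ISG15 in mice, had 0.334 and 0.343.

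The sensors and RNA-binding effectors covered a broad range. Oas3 and Oas2, which make the 2-5A messenger that switches on RNase L, had 2.56 and 0.397 FPM per kb in cecum and 2.65 and 0.375 in tumor. Of the OAS-like genes, Oasl1 had 2.31 and 2.14, with its most accessible tile in the span of the neighbour 2210016L21Rik, and Oasl2 had 1.09 and 0.958. The RNA sensor Dhx58 had 2.01 and 1.98, Ifih1 (MDA5, a sensor of long double-stranded RNA) had 0.646 and 0.654, and Zbp1, a sensor of Z-form nucleic acids, had 1.7 and 1.62. The IFIT proteins, which bind viral RNA ends, lay close together: Ifit3b had 1.23 and 1.33, Ifit1 1.19 and 1.27, Ifit2 1.09 and 1.15, and Ifit3 0.946 and 0.894. Eif2ak2 (PKR), the kinase that stops translation on double-stranded RNA, had 0.509 and 0.553.

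The dynamin-like GTPases Mx1 and Mx2, which RefSeq lists as transcribed pseudogenes in this reference strain, had 0.773 and 0.49 in cecum and 0.903 and 0.488 in tumor, while the guanylate-binding proteins Gbp3 and Gbp2 had 1.6 and 1.09 in cecum and 1.63 and 1.07 in tumor. Dtx3l, a ubiquitin ligase, and its partner Parp9 had 2.12 and 1.21 in cecum and 2.19 and 1.26 in tumor, and Parp14, another ADP-ribosyltransferase, had 1.02 and 1.09. The windows of Parp9 and Dtx3l overlap, as do those of Oas2 with Oas3 and Ifit2 with Ifit3, so the 39 genes form 36 separate loci. The Schlafen genes Slfn5 and Slfn1, the latter known to slow the growth of developing T cells, had 2.23 and 1.47 in cecum and 2.11 and 1.38 in tumor.

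Among the remaining 11 antiviral genes, Ly6e, a surface protein that limits viral entry, led with 4.43 FPM per kb in cecum and 4.58 in tumor, followed by the exonuclease Isg20 (3.04 and 3.66) and the tetherin gene Bst2 (3.01 and 2.88). Ifi35 had 1.81 and 1.87, the mitochondrial nucleotide kinase Cmpk2 1.37 and 1.43, its neighbour Rsad2 (viperin) 1.07 and 1.1, Samd9l 0.903 and 1, Xaf1 0.793 and 0.928, and Trim30a 0.717 and 0.769. Rtp4 had 0.213 and 0.221 over a window of 104 kb. Ifi44 was nearly closed, with 41 fragments in cecum and 54 in tumor (0.0322 and 0.03 FPM per kb), and was the only member without the required 50 fragments in each library, so 38 members entered the comparisons.

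The most accessible tile of most members with a listed start sat near that start. The most accessible 500-bp tile had its middle within 0.5 kb of a start of its own gene for 23 of the 29 members with a listed start, and within 1 kb of a gene end for 29 of 39. It held between 18.9% (Mx1) and 75.2% (Irf9) of the fragments of its window in cecum, with a median of 41.3%. The members with a listed start but a top tile farther from it were Ifit3, Oasl1, Isg15, Dtx3l, Slfn5 and Oas3. At Oas3, 56.7% of the cecum fragments lay in a single tile 1.91 kb inside the gene (chr5:120775501-120776000). Slfn5 had its top tile 0.649 kb past its start, and Ly6e had its top tile outside the gene, 2.85 kb from the nearer gene end (chr15:74962501-74963000).

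Joined over all member windows, which cover 1180.84 kb, accessibility was 1567 FPM in cecum and 1565 in tumor. CCR7+ CD4 cells, named for a receptor that guides naive and central memory T cells to lymph nodes, had the highest level in both libraries, with 1956 FPM (95% interval 1877 to 2037) in cecum and 1806 (1710 to 1906) in tumor. Intervals are exact, and here and below they cover counting error only. CCR7+ CD8 cells followed in cecum with 1837, and had 1697 in tumor, where Mucosal Th1 cells with 1788 and PD1+ CD8 cells with 1718 stood between the CCR7+ labels. In the cecum those labels had 1712 and 1628. Rorgt gdT cells, gamma delta T cells named for the transcription factor RORγt, had the lowest level of the 13 labels, with 1309 and 1384. Both Treg labels lay in between, with 1493 and 1571 FPM for IL-10+ Treg and 1446 and 1538 for IL-10- Treg cells.

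**Figure D1:**
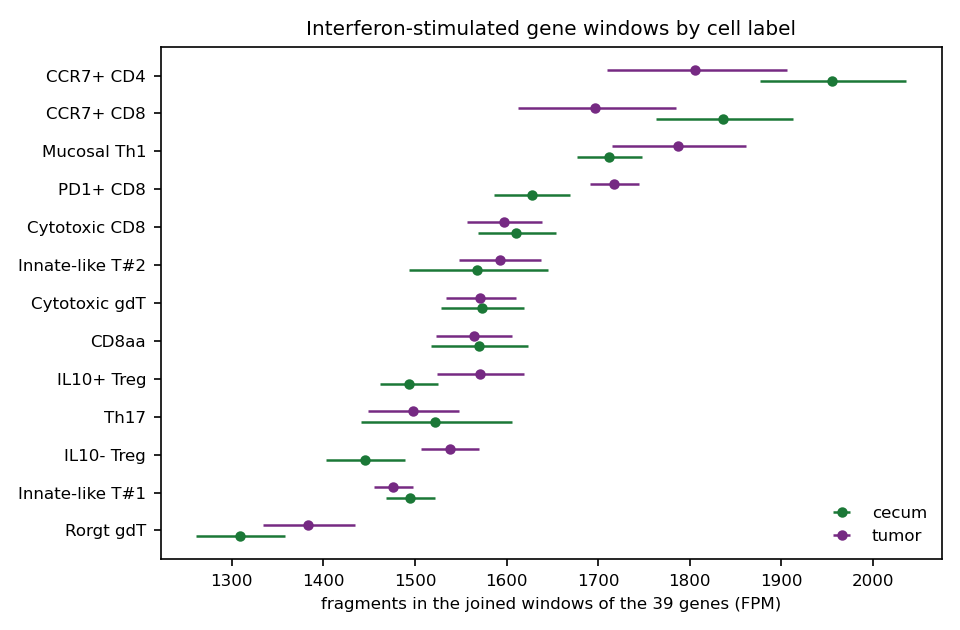
Accessibility joined over all member windows for each of the 13 cell type labels (vertical axis) in FPM (horizontal axis, which does not start at 0), with 1 point per library and bars for the exact 95% counting intervals. CCR7+ CD4 cells lie highest with 1956 FPM in cecum and 1806 in tumor, and Rorgt gdT cells lowest with 1309 and 1384.

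Over the joined windows, the log2 ratio of CCR7+ CD4 cells to all other labelled cells was 0.33 (0.27 to 0.39) in cecum and 0.21 (0.13 to 0.29) in tumor, and that of Rorgt gdT cells was -0.27 (-0.33 to -0.22) and -0.18 (-0.24 to -0.13). For Mucosal Th1 cells it was 0.15 (0.11 to 0.18) and 0.20 (0.14 to 0.26), and within 500 bp of the starts 0.13 (0.08 to 0.19) and 0.11 (0.01 to 0.21). The CCR7+ CD4 ratio was 0.26 and 0.20 for fragments within 1 kb of a gene end and 0.41 and 0.21 for those elsewhere in the windows, and within 500 bp of the starts it was 0.14 (0.04 to 0.25) and 0.12 (-0.01 to 0.26). At the starts CCR7+ CD8 cells had higher ratios, 0.18 (0.08 to 0.28) and 0.15 (0.03 to 0.27). The lead of CCR7+ CD4 cells thus did not hold there, though the intervals of the labels overlap. The start window covers only the 29 members with a listed start, so it differs from the other windows in its genes too. The Rorgt gdT ratio was -0.29 and -0.13 near the gene ends and -0.24 (-0.33 to -0.15) and -0.06 (-0.14 to 0.03) within 500 bp of the starts, where in tumor the interval includes 0 and Cytotoxic CD8 and Th17 cells (each -0.07) were as low. CCR7+ CD4 cells had a median of 8588 fragments per cell in cecum and 3898.5 in tumor against 4374 and 5846 over all labelled cells, and 43.6% and 45.9% of their fragments lay near gene ends. Their epithelial marker level was 0.264 and 0.377 FPM per kb and their myeloid marker level 0.413 and 0.421. Their T cell marker level was 5.68, the highest of the labels, in cecum and 5.39 in tumor. Rorgt gdT cells had the lowest, 3.53 in both libraries. Rorgt gdT cells had a median of 3930.5 and 6911 fragments per cell, with 44.4% and 41.0% of fragments near gene ends. The part of these differences in the result was not tested. Because the labels come from the RNA of these nuclei, which may include these genes, each label set against the rest is a description.

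The order of the labels was only partly the same for single members. CCR7+ CD4 cells were the highest of the 13 labels for 15 of 39 members in cecum and 13 in tumor, where they were highest for 14.6% and 18.8% of all genes tested, yet in tumor they were also the lowest for 7 members (19.9% of all genes). Rorgt gdT cells were the lowest for 15 and 10 members, against 13.2% and 12.7% of all genes. Across the 13 labels, a member's levels in the 2 libraries had a median Pearson r of 0.53, between -0.46 for Bst2 and 0.96 for Oas3, against 0.507 over all genes tested, where the points share gene, label and depth. The same label was highest in both libraries for 13 of the 39 members (33.3%) and lowest for 11 (28.2%), against 30.5% and 24.4% of all genes tested.

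**Figure D2:**
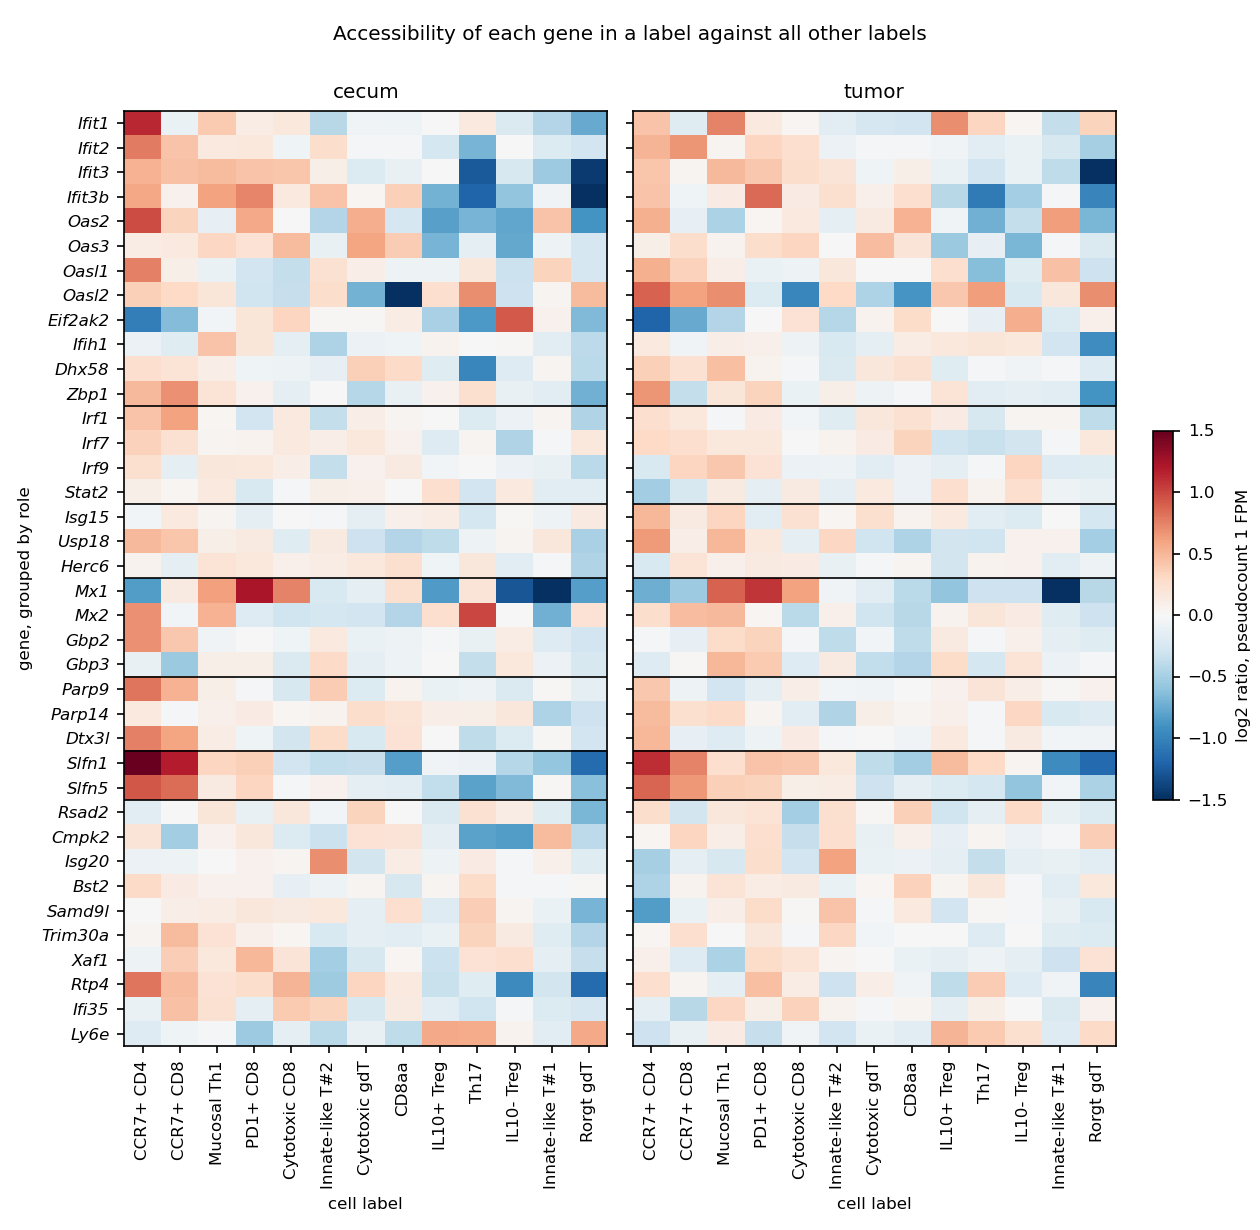
Log2 ratio of each of the 13 labels (columns, for the cecum and the tumor) to all other labelled cells of the same library for the members (rows, grouped by role), with 1 FPM added, as colours that saturate at 1.5 in either direction. Slfn1 and Slfn5 are high in both CCR7+ labels, Mx1 is high in PD1+ CD8 and Cytotoxic CD8 cells and low in Innate-like T#1 cells, and Ifit3 and Ifit3b are low in Rorgt gdT cells.

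In CCR7+ CD4 cells 13 of 38 members were higher than in the rest by a log2 ratio of at least 0.32, the fold minimum used throughout, in both libraries, while 8.27% of all 17357 genes tested were, and 2 were lower, against 16.3%. For counts and medians of members 1 FPM was added to both levels. In the main window, ratios printed for single genes and tiles between labels are those without it. Ratios of single genes under another window, cell filter or averaging, where printed without an interval, include it. They are therefore not the same measure as the main ratios beside them. Both Schlafen genes were among them. Slfn1 had 63.7 FPM against 22.1 in the rest in cecum and 48 against 21.6 in tumor, log2 ratios of 1.53 (1.17 to 1.87) and 1.15 (0.62 to 1.63). Slfn5 had 98.9 against 51.2 and 90.4 against 49.1, ratios of 0.95 (0.67 to 1.22) and 0.88 (0.51 to 1.23). Both were higher in CCR7+ CD4 cells than in the rest by more than their counting error in each library.

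The other members past this minimum were RNA-binding effectors and sensors, the pair Parp9 and Dtx3l, and Usp18. Ifit1 had 49.5 FPM against 22 in cecum, a ratio of 1.17 (0.76 to 1.55), and 32.9 against 24.2 in tumor, 0.44 (-0.21 to 1.02), where the interval includes 0. Oasl1 had 95.6 against 56.1 and 76.7 against 52.8 (0.77 and 0.54), and Ifit2 had 67.1 against 38.6 and 58.9 against 41.1 (0.80 and 0.52). Zbp1 had ratios of 0.49 and 0.68, Usp18 of 0.49 and 0.65, Dtx3l of 0.77 and 0.51, Parp9 of 0.81 and 0.41, Oas2 of 1.04 and 0.58, Oasl2 of 0.37 and 0.91, Ifit3 of 0.56 and 0.44, and Ifit3b of 0.61 and 0.45. Intervals were clear of 0 in both libraries for 7 of the 13, which were Ifit2, Oasl1, Zbp1, Usp18, Dtx3l, Slfn1 and Slfn5.

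Lower in CCR7+ CD4 cells were Eif2ak2, with 10.1 FPM against 21.7 in cecum and 9.59 against 23.4 in tumor (-1.11 and -1.29), and Mx1, with 10.9 against 20.3 and 13.7 against 23.5 (-0.89 and -0.78, the latter with an interval of -1.84 to 0.11). The median of the 38 members was 0.27 in cecum and 0.26 in tumor, while that of all genes was -0.02 in both. Within 1 kb of the gene ends 9 of 37 members were higher, where 1071 of 13687 genes were, and 1 was lower (1637 genes). At 1.5-fold the 13 members fell to 2, Slfn1 and Slfn5, and within 500 bp of the starts 4 of the 28 members testable there were higher. Oas2, Zbp1, Usp18 and Parp9 have no listed start and were not tested there. Here and below, counts at 1.5-fold and near the starts lack a share of all genes and show only how the setting moved them. In that start window Ifit2 in tumor, Oasl2 in cecum, and Ifit3 and Ifit3b in both libraries had negative ratios. Near the gene ends the tumor ratios of Ifit2 (-0.20) and Ifit3b (-0.0058) were negative, as were that of Ifit3b as a mean over cells (-0.33) and, without the cells of highest depth, that of Ifit3 in cecum (-0.025). Of 36 other genes of the pathway, a list that holds receptors and kinases, STAT and IRF factors, upstream sensors and class I antigen presentation, 6 were higher (Ifngr2, Jak1, Irf3, Socs3, Ddx58 and B2m) and Irf5 was lower.

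**Figure D3:**
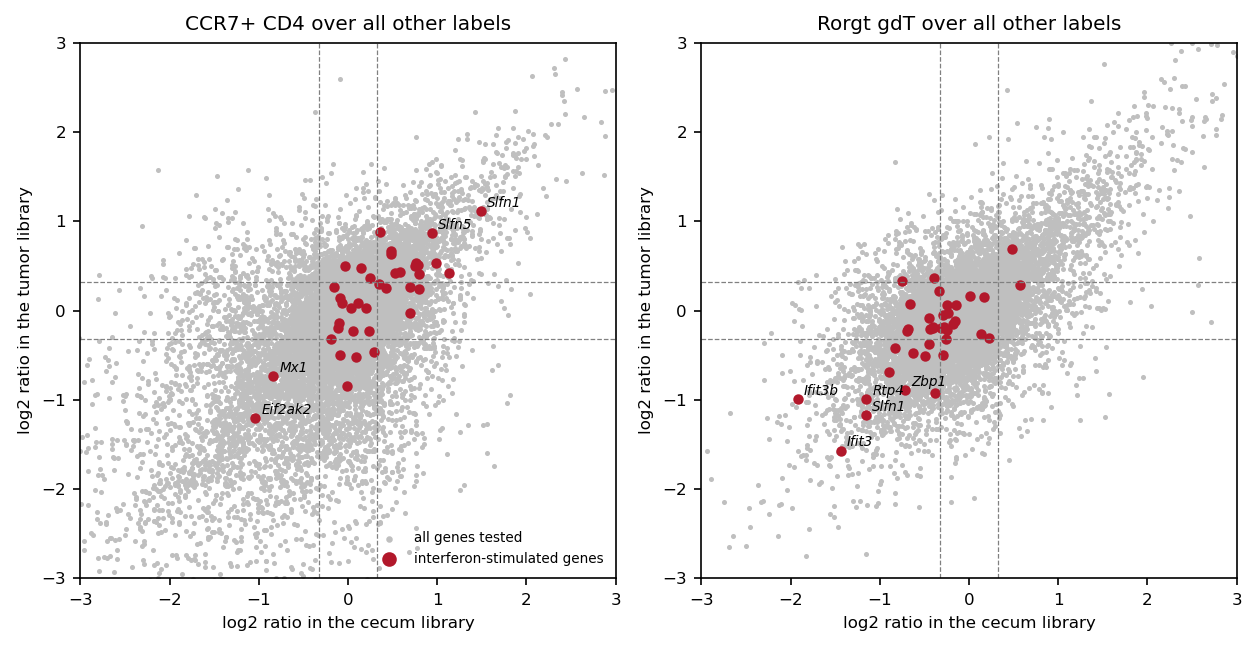
Log2 ratio to the rest in cecum (horizontal) and the tumor (vertical) for CCR7+ CD4 and for Rorgt gdT cells, with 1 FPM added to both levels, members as red points over all genes tested in grey, and dashed lines at the fold minimum. For CCR7+ CD4 cells Slfn1 lies at 1.49 in cecum and 1.11 in tumor, the farthest up and to the right of the members, and for Rorgt gdT cells Ifit3 at -1.44 and -1.57, Ifit3b, Slfn1 and Rtp4 lie farthest down and to the left.

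Within the windows, the tile that holds the Slfn1 start had 22.6 FPM in cecum and 12.3 in tumor in CCR7+ CD4 cells, against 8.84 and 7.24 over all labelled cells, and 3.24 and 2.82 in Rorgt gdT cells. The top tile of Slfn5 had 33.5 and 32.9 against 15.8 and 15.2 over all cells. Among tiles with at least 50 fragments in each library over the cells compared, ranked on the smaller ratio of the libraries, the highest lay 2.21 kb before the Ifit3b start (2.45 in cecum and 3.42 in tumor) and 9.65 kb past the Slfn5 start (2.33 and, with an interval of -1.28 to 3.74, 1.81). Both reached that minimum only with the 2 to 7 fragments of CCR7+ CD4 cells, since the rest held 46 and 47 fragments at Ifit3b and 50 and 48 at Slfn5, so a high ratio in them was favoured by the ranking and is a description only. The lowest was a tile 4.28 kb past the Irf1 start (chr11:53774501-53775000), inside the gene, with 1.68 against 9.51 and 1.37 against 8.14 (-2.50 and -2.57). This tile rested on 2 fragments in cecum and 1 in tumor in CCR7+ CD4 cells, while the tile just before the Irf1 start had 66.2 and 61.7 FPM in them against 46.6 and 42.5 over all cells. The tile outside Ly6e was also lower (-1.72 and -1.42).

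**Figure D4:**
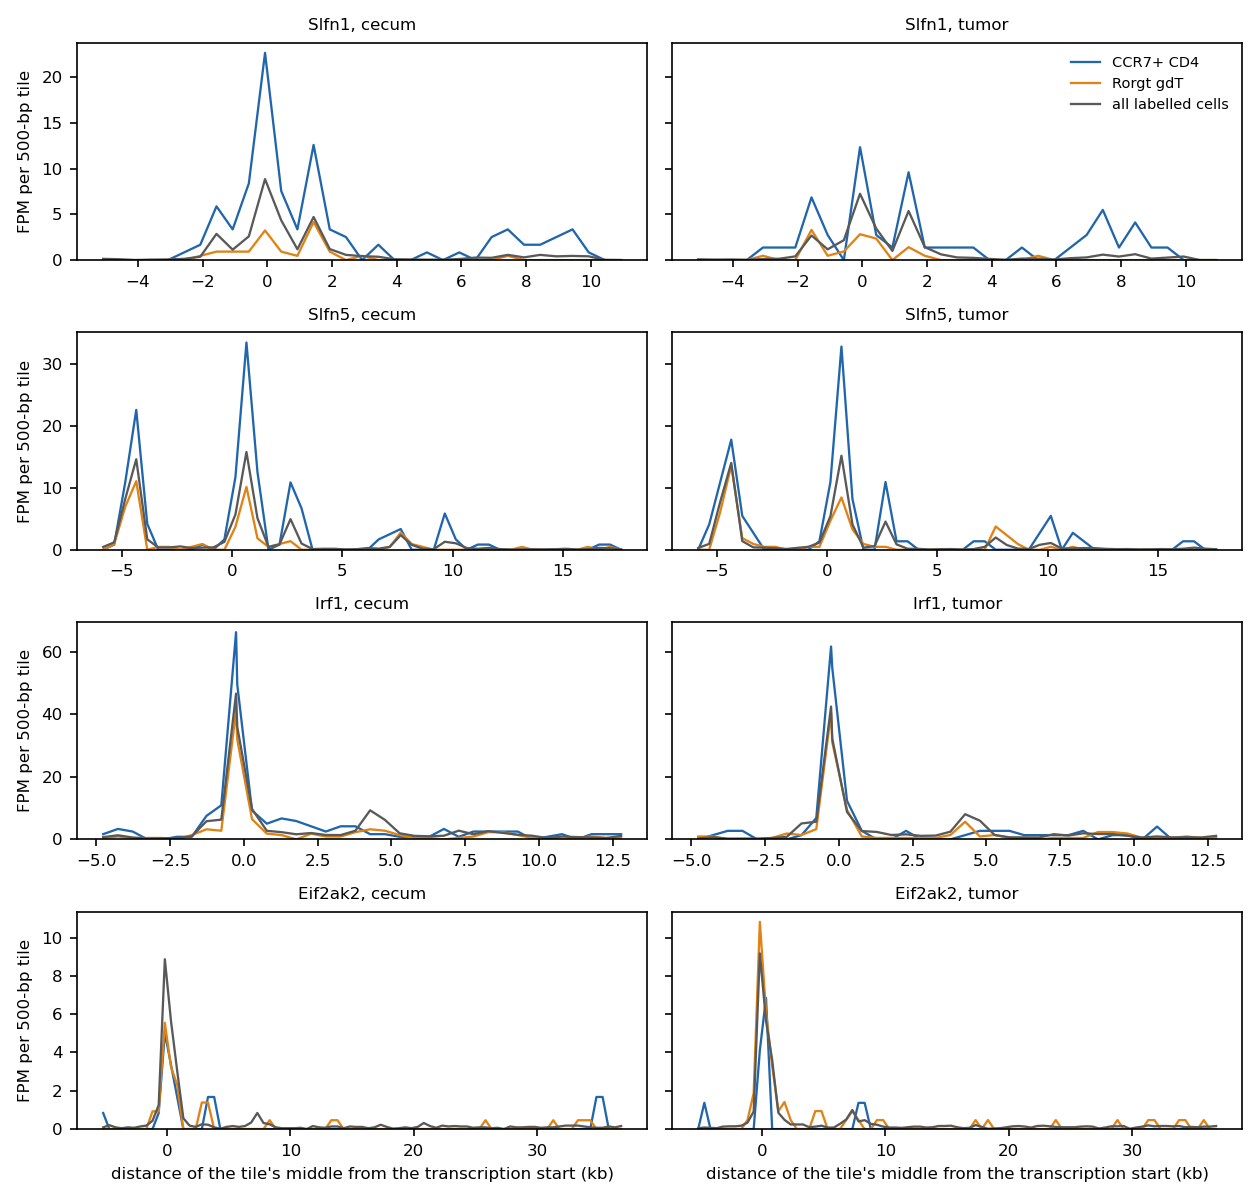
Accessibility in 500-bp tiles (FPM, vertical) by distance from the start in kb (horizontal) at Slfn1, Slfn5, Irf1 and Eif2ak2, with lines for CCR7+ CD4, Rorgt gdT and all labelled cells, the libraries in separate columns and a vertical scale for each gene. At the Slfn1 start CCR7+ CD4 cells reach 22.6 FPM in cecum against 8.84 over all cells, and at the Irf1 tile 4.28 kb past the start they have 1.68 against 9.3.

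Rorgt gdT cells showed the largest set of members in the opposite direction: 11 of 38 were lower than in the rest in both libraries, against a background of 11.7%, and 1 was higher, against 7.71%. Ifit3 had 5.09 FPM against 15.5 in cecum and 4.23 against 14.5 in tumor (-1.61 and -1.78), and its near copy Ifit3b had 4.62 against 20.3 and 10.3 against 21.5 (-2.14 and -1.06). Slfn1 had 10.2 against 23.9 and 9.41 against 22.4 (-1.23 and -1.25). Rtp4, a chaperone of membrane receptors, had 9.71 against 22.8 and 11.3 against 23.4 (-1.23 and -1.05). In all of these the intervals were clear of 0.

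The remaining lower members in Rorgt gdT cells were Oas2 (-1.0 in cecum and -0.77 in tumor), Zbp1 (-0.74 and -0.93), Ifih1 (-0.40 and -0.96), Mx1 (-0.88 and -0.44, the latter with an interval that includes 0), Slfn5 (-0.64 and -0.49), Usp18 (-0.50 and -0.51) and Irf1 (-0.46 and -0.38). As a mean over cells the Zbp1 ratio in cecum was 0.093, and within 1 kb of the gene ends the Mx1 ratio in tumor was 0.020. Oasl2 went the other way, with 37.9 FPM against 27 and 39 against 23.7 (0.49 and 0.72), and its tile 0.183 kb before the start had 18 against 9.97 and 19.3 against 7.82 (0.86 and 1.30). The member median was -0.39 in cecum and -0.20 in tumor, against -0.08 and -0.07 for all genes, and Tlr7 and Tlr9 were among the lower pathway genes, with none higher. Within 1 kb of the gene ends 8 of 37 members were lower, where 1505 of 13687 genes were, and 1 was higher (606 genes). At 1.5-fold 6 members were lower and none was higher, and within 500 bp of the starts 6 of the 28 members testable there were lower. Oas2, Zbp1, Usp18, Mx1 and Rtp4 have no listed start and were not tested there. The highest tile of this label, 4.33 kb before the Irf7 start (9.71 against 1.43 FPM in cecum and 7.06 against 1.45 in tumor), lay in the span of the neighbouring gene Cdhr5, and the lowest lay 4.72 kb past the Ifit3 start (-2.62 and -2.22).

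Mx1 was among the higher members in Mucosal Th1, PD1+ CD8 and Cytotoxic CD8 cells. In Mucosal Th1 cells, which are CD4 cells of the interferon gamma-producing type, 4 of 38 members were higher than in the rest in both libraries, where 2.16% of all genes were, and none was lower, where 8.54% were. Ifit1 had 29 FPM against 21.9 in cecum and 40.9 against 24 in tumor (0.40 and 0.77), Mx1 had 29.2 against 18.8 and 43.2 against 23 (0.64 and 0.91), Ifit3 had ratios of 0.51 and 0.51, and Mx2 of 0.55 and 0.51. For Ifit3 and Mx2 the tumor intervals include 0. The member median was 0.14 in cecum and 0.15 in tumor, against -0.02 and -0.01 for all genes. Of 38 members 33 and 30 lay above 0, and the share of all genes above 0 was not counted. None of the 36 pathway genes passed in either direction. Within 1 kb of the gene ends 6 of 37 members were higher, where 267 of 13687 genes were, and none was lower (1017 genes). At 1.5-fold 1 member was higher.

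In PD1+ CD8 cells 5 members were higher (background 6.74%) and 1 was lower (5.74%). Mx1 had 43.3 FPM against 17.9 in cecum and 43.1 against 20 in tumor (1.27 and 1.11), Ifit3b had ratios of 0.76 and 0.89, Ifit3 of 0.46 and 0.43, Slfn1 of 0.38 and 0.44, and Slfn5 of 0.33 and 0.34, while Ly6e had 46.1 against 67.7 and 55.1 against 70.5 (-0.55 and -0.36). Within 1 kb of the gene ends, which hold 10.9% of all Slfn5 fragments in cecum, the Slfn5 ratio in cecum was -0.17 and the Ly6e ratio in tumor 0.016. Nlrc5 was the higher pathway gene, and Irf5 and Tlr3 were lower. Cytotoxic CD8 cells had 3 members higher (2.81%) and 1 lower (7.09%): Mx1 with 32.5 against 19 and 34.9 against 22.6 (0.78 and 0.62), Oas3 (0.48 and 0.33), Ifi35 (0.41 and 0.36) and, lower, Oasl2 (-0.36 and -1.03). Within 1 kb of the gene ends 1 of 37 members was higher in Cytotoxic CD8 cells (264 of 13687 genes) and 2 were lower (1009 genes). In PD1+ CD8 cells 3 were higher there in place of 5 (554 of 13687 genes). Irf5, Irf8, Socs3 and Tlr7 were lower pathway genes in Cytotoxic CD8 cells.

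Mx1 had its lowest levels in Innate-like T#1 cells, with 6.94 FPM against 22.9 in cecum and 6.96 against 27.5 in tumor (-1.72 and -1.98). In that label Slfn1 (-0.61 and -1.0), Ifit1 (-0.46 and -0.37) and Ifit3 (-0.58 and -0.41) were also lower, making 4 lower members (background 8.8%), and Oas2 (0.46 and 0.68) and Oasl1 (0.34 and 0.44) were higher, 2 members (9.43%). The Oas2 ratio was -0.24 and -0.44 within 1 kb of the gene ends, which hold 17.1% of all Oas2 fragments in cecum and 10.9% in tumor. Its window, with 15.1 FPM against 11 in cecum and 15.8 against 9.87 in tumor, reaches into the span of Oas3, where 1 tile (chr5:120754001-120754500) had 4.34 against 0.863 and 5.2 against 1.39 FPM, and this tile held most of the difference in the Oas2 window. In cecum only 31 of its fragments came from the rest. Irf8 and Tlr7 were higher and Jak2, Irf4 and Nlrc5 lower pathway genes. Innate-like T#2 cells had only Isg20 higher (background 5.82%), with 83 against 50.8 and 92.5 against 60.6 (0.71 and 0.61), and no member lower (8.43%), with Tlr3 and Tlr9 higher and Irf4 lower among the pathway genes. In this label 2 of 37 members were lower within 1 kb of the gene ends, where 819 of 13687 genes were.

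CCR7+ CD8 cells also had both Schlafen genes higher, among 3 members higher (background 6.2%) and 1 lower (12.8%). Slfn1 had 52 FPM against 22.4 in cecum and 37.2 against 21.7 in tumor (1.22 and 0.77), Slfn5 had 92.1 against 51.3 and 77.7 against 49.2 (0.84 and 0.66), and Ifit2 had ratios of 0.44 and 0.67. Eif2ak2 was lower, with 13.4 against 21.7 and 13.5 against 23.4 (-0.69 and -0.79, the latter with an interval that includes 0). Within 1 kb of the gene ends the Slfn5 ratios were -0.044 and -0.56 and the Ifit2 ratio in cecum was -0.21, and as a mean over cells the Eif2ak2 ratio in tumor was 0.65. The gene-end window holds 10.9% of all Slfn5 fragments in cecum and 11% in tumor, and not its top tile. The pathway genes Ifngr2, Jak1, Socs3, Tlr7 and Ikbke were higher.

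CD8aa cells, named for the homodimer of the CD8 alpha chain, had no member higher (background 5.48%) and 4 lower (12.3%). Oasl2 had 8.82 FPM against 28.5 in cecum and 13 against 24.9 in tumor (-1.69 and -0.94), Slfn1 had ratios of -0.87 and -0.54, Usp18 of -0.45 and -0.47, and Mx2 of -0.47 and -0.44. For Mx2 the cecum interval includes 0. Within 500 bp of the starts 3 of 28 members were higher and 2 lower in CD8aa cells. Psmb10 was higher and Ifngr2, Socs3 and Tlr3 lower among the pathway genes. Cytotoxic gdT cells had Oas3 higher (5.03%), with 129 against 85.7 and 124 against 89.4 (0.59 and 0.47), and Oasl2 (-0.74 and -0.49) and Slfn1 (-0.37 and -0.40) lower (9.97%), with Tbk1 higher and Ifngr2 and Socs3 lower. For Slfn1 in Cytotoxic gdT cells the cecum interval includes 0. Among the 13 labels Oas3 spanned from 53.3 FPM in IL-10- Treg to 129 in Cytotoxic gdT cells in cecum and from 58.9 to 124 in the same labels in tumor. Th17 cells had Oasl2 (0.72 and 0.65) and Ly6e (0.56 and 0.39) higher (6.18%) and Ifit3b (-1.30 and -1.13) and Oas2 (-0.78 and -0.81) lower (9.53%), and Irf8 and Psmb10 were lower there. For Oas2 in Th17 cells the cecum interval includes 0. In Th17 cells 5 of 37 members were lower within 1 kb of the gene ends, in place of 2, where 1517 of 13687 genes were.

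In the Treg labels set against all other cells, Oas3 was lower in both. IL-10+ Treg cells had 57.3 FPM against 93.4 in cecum and 62.7 against 93 in tumor (-0.71 and -0.57), and IL-10- Treg cells had 53.3 against 91.3 and 58.9 against 95.1 (-0.78 and -0.69). IL-10+ Treg cells had 1 member higher (background 4.83%), Ly6e with 92.1 against 62 and 96 against 66.9 (0.57 and 0.52), and 4 lower (14.9%), of which Mx1 (-0.90 and -0.62), Ifit3b (-0.75 and -0.44) and Rtp4 (-0.35 and -0.40) were the others. Tiles outside the gene held much of the Ly6e difference: the tile 2.85 kb from its nearer end had 35.2 FPM against 16.5 in cecum and 35.9 against 17.3 in tumor, the adjoining tile (chr15:74962001-74962500) 11.9 against 5.77 and 13.6 against 5.56, and within 1 kb of the gene ends the Ly6e ratio was 0.16 (-0.08 to 0.38) and 0.18 (-0.13 to 0.48). In that window 2 of 37 members were lower in IL-10+ Treg cells, in place of 4, where 1470 of 13687 genes were. For Rtp4 in IL-10+ Treg cells the tumor interval in the main window includes 0. IL-10- Treg cells had Eif2ak2 higher (7.58%), with 39 against 20.1 and 32.9 against 22.3 (0.95 and 0.56), and 4 lower (8.25%), which besides Oas3 were Ifit3b (-0.62 and -0.54), Oas2 (-0.86 and -0.40) and Slfn5 (-0.68 and -0.61). For Oas2 the tumor interval includes 0. Within 1 kb of the gene ends the Eif2ak2 ratio in tumor was -0.028, the Oas2 ratio in tumor 0.71 and the Slfn5 ratios 0.14 and 0.29. That window holds 10.9% of all Oas2 fragments in tumor, and of Slfn5 10.9% in cecum and 11% in tumor. Jak2 was a higher pathway gene in both labels, beside Irf4 in IL-10+ and Irf5 in IL-10- Treg cells, and Ddx58 was lower in the latter.

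The study compared IL-10+ with IL-10- Treg cells directly, and in that contrast the log2 ratio over the joined windows was 0.05 (-0.01 to 0.10) in cecum and 0.03 (-0.02 to 0.08) in tumor. The parts of the windows differed between the libraries: near the gene ends the ratio was 0.09 (0.02 to 0.16) in cecum and -0.02 (-0.09 to 0.06) in tumor, and elsewhere it was -0.01 (-0.08 to 0.07) and 0.09 (0.01 to 0.17). The member medians were 0.08 and -0.00, against 0.01 in both libraries for all genes. Past the fold minimum in both libraries were 2 members higher in IL-10+ Treg cells, against 3.05% of 14411 genes, and 2 lower, against 9.06%. Oasl2 had 32.1 FPM in the IL-10+ subset against 22.3 in the IL-10- subset in cecum and 31.9 against 20.8 in tumor, ratios of 0.52 (0.11 to 0.95) and 0.61 (0.20 to 1.02). Slfn1 had 22.4 and 17.3, and 30.4 and 22.6, with ratios of 0.37 (-0.10 to 0.87) and 0.43 (0.02 to 0.84), and became negative in both libraries as a mean over cells (-0.40 and -0.54).

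Eif2ak2 was lower in IL-10+ Treg cells, with 15.6 FPM against 39 in cecum and 23.1 against 32.9 in tumor, ratios of -1.32 (-1.74 to -0.91) and -0.51 (-0.95 to -0.09), and Usp18 had 52.4 against 68 and 53.9 against 67.9 (-0.38 and -0.33). The Eif2ak2 window also holds Gpatch11, Gm26637 and Sult6b1. Counted within 1 kb of the gene ends none of 35 members was lower, where 456 of 10807 genes were, and 3 were higher (311 genes). At 1.5-fold none passed in either direction. Of 2395 tiles, 76 held at least 50 fragments of the Treg labels in each library, and among these the highest was 0.183 kb before the Oasl2 start (chr5:114896501-114897000), with 13 against 6 FPM in cecum and 10.3 against 5.86 in tumor (1.11 and 0.81), followed by a tile 1.49 kb before the Oasl1 start (0.76 and 0.74) and the tile outside Ly6e (0.61 and 0.69). The lowest of the 76 lay in Parp14 (-0.54 and -0.45) and 0.299 kb before the Rsad2 start (-0.35 and -0.94). The intervals include 0 in both libraries for the Parp14 tile and in cecum for the Rsad2 tile. A tile below this minimum, chosen after its values were seen, differed more: 7.32 kb past the Eif2ak2 start, inside the gene (chr17:78875001-78875500), IL-10+ Treg cells had 3 fragments and IL-10- Treg cells 27 in cecum (0.525 and 9.0 FPM), and 1 and 40 in tumor (0.367 and 6.89). The log2 ratios there were -4.10 (-6.46 to -2.40) and -4.23 (-9.57 to -1.67), and over all labelled cells the tile had 0.841 and 0.998 FPM. Of 34 pathway genes with enough fragments, Ifngr1 was higher (0.35 and 0.39).

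PD1+ CD8 cells, which carry the inhibitory receptor of exhausted and activated cells, were compared with Cytotoxic CD8 cells. Here 2 members were higher, against 5.56% of 14447 genes, and none was lower, against 2.44%. Ifit3b had 31.4 FPM in PD1+ and 21.5 in Cytotoxic CD8 cells in cecum and 34.8 and 22.9 in tumor, ratios of 0.54 (0.10 to 0.99) and 0.60 (0.25 to 0.96). Cmpk2 had 31.9 and 24.8, and 34.4 and 23.4, ratios of 0.36 (-0.05 to 0.79) and 0.55 (0.21 to 0.91). Over the joined windows the ratio was 0.01 (-0.04 to 0.07) in cecum and 0.10 (0.06 to 0.15) in tumor, and the member medians were 0.07 and 0.13, against -0.01 in both for all genes.

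Single tiles at the ends of a ranking of 80 differed more between these CD8 labels, which the ranking favours. A tile 0.105 kb before the Gbp3 start had 10.5 FPM against 6.2 in cecum and 13.8 against 7.46 in tumor (0.77 and 0.89), and a tile 0.536 kb past the Cmpk2 start had 13.9 against 8.85 and 12.9 against 7.46 (0.65 and 0.79). In cecum both intervals include 0 (-0.04 to 1.61 and -0.03 to 1.35). The tile outside Ly6e was lower in PD1+ CD8 cells, with 8.33 against 17.1 and 7 against 18.9 (-1.04 and -1.43), as was the Irf1 tile 4.28 kb past the start, with 7.5 against 14.5 and 7.65 against 13.6 (-0.95 and -0.83). The Ly6e tile was among the higher tiles in IL-10+ over IL-10- Treg cells and among the higher tiles of Rorgt gdT cells (0.96 and 0.92). Of the 34 pathway genes, Tlr9 was higher. With a minimum of 200 fragments in place of 50, no member passed. Within 1 kb of the gene ends 4 of 35 members were higher, where 284 of 10616 genes were.

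Between tumor and cecum no member passed the fold minimum in the mean over the 13 labels, in which the ratio is taken within each label with 1 FPM added and labels weigh equally, while 3.6% of 17216 genes were higher and 0.575% lower in tumor. Within 1 kb of the gene ends 1 of 37 members was higher, where 426 of 13508 genes were. In the main window the median of the 38 member means was 0.03, against 0.002 for all genes. Of the 38 means 24 were above 0, and the share of all genes above 0 was not counted. Over the joined windows the mean was 0.01, with labels between -0.12 (CCR7+ CD4) and 0.09 (IL-10- Treg) and 6 of 13 above 0. The labels at the ends of this range depended on the window: near the gene ends they were CCR7+ CD8 (-0.13) and Rorgt gdT (0.15), and CCR7+ CD4 cells had -0.05 (-0.19 to 0.08). None of the 36 pathway genes passed either.

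The highest means were those of Cmpk2 (0.26, with labels from -0.33 to 0.88 and 8 of 13 above 0), Ifit1 (0.21, with 9 of 13 above 0), Mx1 (0.20, 9 of 13), Xaf1 (0.16, 8 of 13) and Ifit3b (0.15, 9 of 13). At the other end stood Stat2 (-0.19), where only 1 of 13 labels lay above 0, Irf1 (-0.12, 3 of 13), Zbp1 (-0.11, 6 of 13) and Gbp2 (-0.10, 8 of 13). By role, the median was -0.10 for the 4 transcription factors, whose levels over all labelled cells were each lower in tumor, and 0.08 for the other antiviral genes. Isg20 had the largest difference over all labelled cells, with 51.6 FPM in cecum and 62.1 in tumor (a log2 ratio of 0.27), and a mean within labels of 0.13 (10 of 13 above 0).

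**Figure D5:**
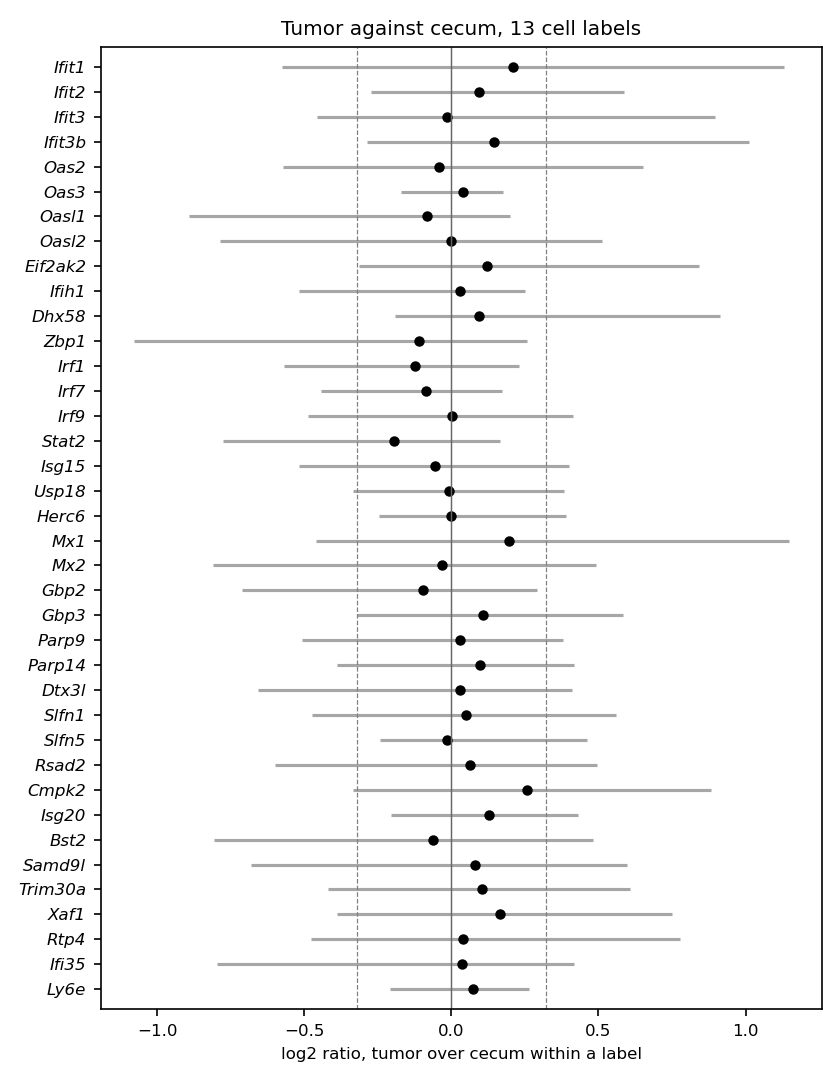
Log2 ratio of tumor to cecum (horizontal) for the 38 members (vertical, by role), with a point for the mean over the 13 labels, a bar from the lowest to the highest label and dashed lines at the fold minimum. The means run from -0.19 (Stat2) to 0.26 (Cmpk2) and none passes a line, while most bars reach past one.

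Of 271 tiles with at least 50 fragments in each library over the 13 labels, 134 had a mean ratio above 0 and 137 below. The tiles named here are the 5 at each end of that ranking, which favours large values, and they have no interval. For these means 1 FPM was added to both levels. Some tiles rest on few fragments: that 1.67 kb before the Isg20 start had 65 in cecum and 64 in tumor. The tile with the highest mean ratio of tumor to cecum lay 4.17 kb before the Isg20 start, in the span of the neighbour Aen (0.54, 10 of 13 labels above 0), followed by a tile inside Parp14 (chr16:35869001-35869500, 0.52, 12 of 13), which was also the lowest of the 76 tiles ranked in IL-10+ over IL-10- Treg cells. Tiles inside Samd9l (0.49), Trim30a (0.42) and Dhx58 (0.40) came next. The lowest were an Irf1 tile 7.28 kb past the start (-0.54, 4 of 13 above 0), a tile 1.67 kb before the Isg20 start (-0.49), tiles at Trim30a (-0.45) and Slfn1 (-0.40), and a tile 1.41 kb before the Gbp2 start in the span of Gbp2b (-0.39). At Isg20 and Trim30a, tiles of 1 window stood at both ends of the ranking, which was not tested.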

How the data were processed

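The deposited fragment files were made by the authors with Cell Ranger ARC 2.0.0 and mm10, per the file headers. Each line is 1 unique fragment of a cell barcode with its count of read pairs, a raw count that is not normalized, with positions as the pipeline gives them. Cell labels came from the authors' deposited annotation, made from the RNA of the same nuclei, and the RNA counts were not analysed here. Whether the authors removed doublets or filtered multiply mapped reads is not stated in the sources used, and doublets were not called.

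Fragments of labelled cells on chromosomes 1 to 19, X and Y (43980981 in cecum and 62118519 in tumor) were counted once per window if either end lay there. Gene spans were those of RefSeq on GRCm38.p6 (mm10) for 21887 protein-coding genes plus the pseudogenes Mx1 and Mx2. This table has no exons, so exon or intron is not stated. Genes needed 50 fragments in each library, summed over the labels compared. Ratios are log2 of FPM, with exact conditional 95% intervals. Calls needed a log2 ratio of 0.32 in both libraries (tumor over cecum, in the mean over labels) with a pseudocount of 1 FPM, which understates changes of low genes. Members and lists were chosen with earlier results of these data known, and all members are named, with pathway genes past the fold (1 of these is not reported here) and, for the comparisons described in depth, extreme tiles. A call is a description and not a test. Alternatives were other windows, cell filters, scalings, pseudocounts, minimums and folds. The counter and the intervals were tested on simulated data. Python 3.11.15, matplotlib 3.10.9, numba 0.67.0, scipy 1.17.1, pandas 2.3.3 and numpy 2.4.6 were used.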

Additional observations from a re-analysis of the deposited data

Results flagged for a closer look

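Of 570 member contrasts (38 members in 15 comparisons of labels), 79 passed the fold minimum (a log2 ratio of 0.32) in the same direction in both libraries and 5 passed it in opposite directions (13.9% and 0.877%), against 15.6% and 1.86% of the contrasts of all genes tested. In CCR7+ CD8 cells over the rest, Zbp1 had a log2 ratio of 0.70 (0.35 to 1.03) in cecum and -0.36 (-1.0 to 0.20) in tumor, Cmpk2 -0.55 (-1.18 to 0.02) and 0.33 (-0.21 to 0.83), and Ifi35 0.45 (0.06 to 0.81) and -0.43 (-1.06 to 0.13). In Rorgt gdT cells over the rest, Ifit1 had -0.79 (-1.38 to -0.26) and 0.34 (-0.04 to 0.70), and Cmpk2 -0.41 (-0.86 to 0.01) and 0.38 (0.04 to 0.70). With 1 library per tissue the difference was not tested. Each rests on 25 to 81 fragments of the label, and of these pairs only Cmpk2 in Rorgt gdT cells had a tumor interval clear of 0.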

How the results depend on the processing

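No paired analysis was possible because each tissue had 1 library. For the same reason no replicate was left out.

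For IL-10+ over IL-10- Treg cells, the 2 members higher became 1 with scaling by fragments near gene ends, as a mean over cells, with a pseudocount of 5 FPM and with a minimum of 200 fragments, and 0 at 1.5-fold. The 2 lower became 0 within 1 kb of gene ends, within 500 bp of the starts and at 1.5-fold, and 1 with cells of at least 1000 fragments, without cells above 3 times the median and with a pseudocount of 5 FPM. For PD1+ over Cytotoxic CD8 cells, the 2 higher became 4 near gene ends, with scaling by fragments near gene ends and as a mean over cells, 1 with a pseudocount of 5 FPM, and 0 with a minimum of 200 fragments and at 1.5-fold, and the 0 lower became 1 near the starts and as a mean over cells. For tumor over cecum, the 0 higher became 1 near gene ends, without cells above 3 times the median and as a mean over cells. For CCR7+ CD4 cells, the 13 higher became 4 near the starts and 2 at 1.5-fold, and the 2 lower became 1 near gene ends and 4 as a mean over cells. For Rorgt gdT cells, the 1 higher became 2 without high cells, with scaling near gene ends and as a mean over cells, and 0 at 1.5-fold, and the 11 lower became 6 near the starts and 6 at 1.5-fold. For Mucosal Th1 cells, the 4 higher became 2 as a mean over cells and 1 at 1.5-fold, and the 0 lower became 1 near the starts. Summed over the other 10 labels, 7 members were higher and 8 lower at 1.5-fold, but these sums hide changes in single labels: of 20 counts (higher and lower for each label), 14 moved by over 1.5 times at 1.5-fold, 12 near the starts, 10 as a mean over cells, 9 near gene ends and 6 with a pseudocount of 5 FPM. Near gene ends the higher members went from 3 to 1 in Cytotoxic CD8, 5 to 3 in PD1+ CD8, 2 to 1 in Innate-like T#1 and 1 to 0 in IL-10- Treg cells, and the lower ones from 2 to 5 in Th17, 0 to 2 in Innate-like T#2, 4 to 2 in IL-10+ Treg, and 1 to 2 in CCR7+ CD8 and Cytotoxic CD8 cells. As a mean over cells Innate-like T#2 cells had 4 higher and 4 lower, in place of 1 and 0, and near the starts CD8aa cells had 3 higher, in place of 0. A stricter fold lowers these counts by construction. Near the starts, members without a listed start, such as Usp18, could not be counted. For a label over the rest 28 members were tested there and 37 near gene ends, in place of 38. These counts are given without the share of all genes and describe only how a setting moved them. For the other settings the cause was not tested.

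Of 1050 alternatives for called members, 929 stayed close, 91 moved and 30 changed sign, on ratios with the pseudocount. Close means inside the counting interval of the main ratio, which is wide for small labels. Not every sign change is named below. Within 1 kb of gene ends the ratio changed sign for Eif2ak2 (-0.028, tumor), Oas2 (0.71, tumor) and Slfn5 (0.14 and, in tumor, 0.29) in IL-10- Treg, Ifit2 (-0.20, tumor) and Ifit3b (-0.0058, tumor) in CCR7+ CD4, Ifit2 (-0.21, cecum) and Slfn5 (-0.044 and -0.56) in CCR7+ CD8, Ly6e (0.016, tumor) and Slfn5 (-0.17, cecum) in PD1+ CD8, Mx1 (0.020, tumor) in Rorgt gdT, and Oas2 (-0.24 and -0.44) in Innate-like T#1 cells. Within 500 bp of the starts it did so for Ifit2 (-0.32, tumor), Ifit3 (-0.22 and -0.11), Ifit3b (-0.10 and -0.45) and Oasl2 (-0.18, cecum) in CCR7+ CD4, and for Slfn5 in IL-10- Treg (0.31, tumor) and PD1+ CD8 cells (-0.046 and -0.016). As a mean over cells it did so for Eif2ak2 in CCR7+ CD8 (0.65, tumor), Ifit3b in CCR7+ CD4 (-0.33, tumor), Slfn1 in IL-10+ over IL-10- Treg (-0.40 and -0.54) and Zbp1 in Rorgt gdT cells (0.093, cecum), and without high cells for Ifit3 in CCR7+ CD4 (-0.025, cecum). The gene-end window holds 10.9% of all Slfn5 and 17.1% of all Oas2 fragments in cecum, and 11% and 10.9% in tumor. Ratios of these genes there rest on a small part of their fragments. The cause was not tested. Medians of the lists moved in 10 of 343 alternatives, ratios of the joined windows in 28 of 62 and counts of members in 37 of 156. A median counted as moved only past a fixed log2 change that is larger than many of the medians. A median that lost its sign could therefore count as unmoved. CCR7+ labels hold 125 to 164 cells a library, which limits the precision of their ratios.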
